A study of Arabidopsis thaliana with 12 samples.

Results

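The comparison described here sets 3 arrays labelled arf2 gnc gnl against 3 arrays of the gnc gnl mutant, 6 of the 12 arrays of the series, chosen by the genotype in their labels alone. Both groups were untreated whole seedlings of Arabidopsis thaliana, ecotype Col0, 10 days old, grown on GM medium in white light under long days (16 h of light) and harvested at the middle of the light period. Both groups carry gnc gnl by label, so the label sets them apart by the arf2 mutation (arf2-8) only. The other 6 arrays, 3 wild type (WT) and 3 arf2, entered the fit and are quoted for reference. Each genotype had 3 independent biological samples according to the series design, each hybridised to its own one-colour array.

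Auxin response factors are DNA-binding proteins through which auxin changes transcription, and ARF2 is a member known mainly as a repressor. GNC and its paralogue GNL (also CGA1 or GATA22) are GATA factors of class B that promote greening and chloroplast formation and act in gibberellin, auxin and cytokinin responses. By its labels, the comparison asks what loss of ARF2 changes in plants without GNC and GNL.

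ARF2, GNC and GNL were examined before all other genes. Signals are given as a percent of the 75th percentile signal of the same array, which ran from 2290 to 2872 intensity units over the 6 arrays. The ARF2 probe (AT5G62000) read 169%, 197% and 159% in the gnc gnl arrays and 105%, 101% and 131% in the labelled arrays. The 3 arf2 arrays read 3.84%, 0.726% and 5.63% on that probe, and the WT arrays 188%, 176% and 192%. The labelled arrays thus lay below every gnc gnl array and far above every arf2 array. The log2 difference, labelled minus gnc gnl, was -0.65 ± 0.56 (SE, n = 3 against 3, limma adjusted p = 0.471) when all 12 arrays shared 1 estimate of the spread, and it passed the threshold when the arf2 arrays were left out (adjusted p = 0.0122).

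GNC (AT5G56860) was low in both groups. Its tested probe read 6.76%, 9.02% and 6.0% in gnc gnl and 9.76%, 8.65% and 8.59% in the labelled arrays, against 141% to 171% in WT. The groups overlapped and the difference of 0.33 ± 0.13 did not pass the test (adjusted p = 0.129). On the other GNC probe the labelled arrays read 6.94%, 6.47% and 12.1% and the gnc gnl arrays 3.5%, 4.0% and 2.98%, without overlap. With both probes averaged the difference was 0.78 (adjusted p = 0.00879).

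GNL (AT4G26150) separated the groups most. Its probe read 1.43%, 0.490% and 0.509% in the gnc gnl arrays, none of them well above background, and 35.7%, 38.2% and 38.3% in the labelled arrays. WT arrays read 22%, 24.3% and 18%. The labelled arrays were therefore at least 16.7-fold above gnc gnl (log2 difference 5.72 ± 0.33, adjusted p = 1.14e-05), and all 3 stood above every WT array. The ARF2 and GNL probes go against the label by their level. In all 3 labelled arrays ARF2 read far above every arf2 array and GNL above every WT array. Both were well above background there, but so were the GNC probes. Where each probe lies relative to the mutations is not given in the sources used here. The arrays are called labelled throughout, and every direction below rests on that label.

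**Figure D1:**
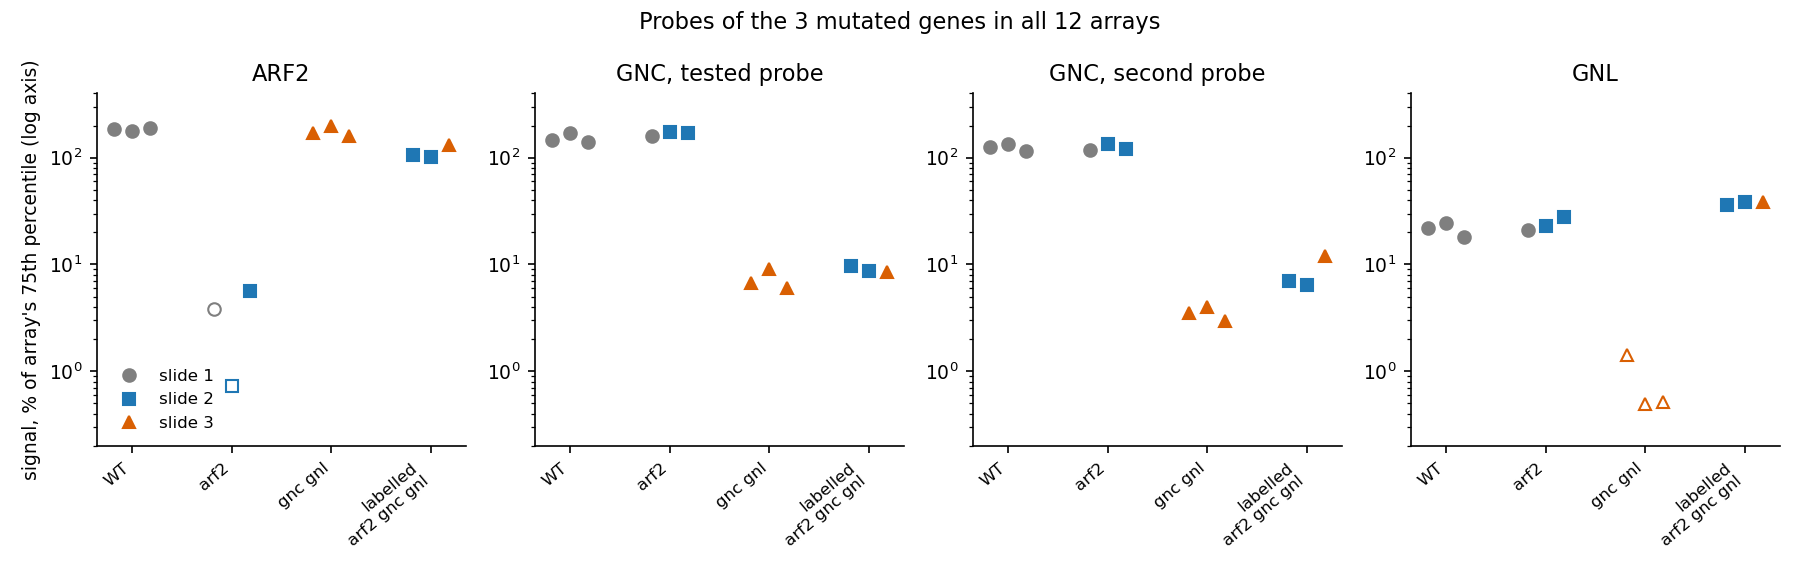
Signal of the ARF2, GNC and GNL probes in each of the 12 arrays, as a percent of the array's 75th percentile on a log axis, with marker shape and colour for the slide and open markers for spots not well above background. The labelled arrays lie below WT and gnc gnl but far above arf2 for ARF2, near gnc gnl for GNC, and above WT for GNL.

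The arrays lay on 3 slides. Slide 3 held the 3 gnc gnl arrays and labelled replicate 3, while labelled replicates 1 and 2 lay on slide 2. The 3 WT arrays and arf2 replicate 1 lay on slide 1, and arf2 replicates 2 and 3 on slide 2. Between replicates, log2 levels over genes correlated at 0.988 to 0.991 in gnc gnl and at 0.992 to 0.996 in the labelled group, and between the groups at 0.978 to 0.986. No spot was saturated, and 66.9% to 70.2% of the probes of the 6 arrays were well above background. With 3 arrays a group, precision is limited throughout.

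Of 18965 genes tested, 2213 (11.7%) differed at an adjusted p under 0.05, the threshold for every gene called higher or lower here. Of these, 1002 (5.28%) were higher and 1211 (6.39%) lower in the labelled arrays, so 45.3% of the calls were higher. The typical difference was modest, with a median log2 value of 0.49 among the higher genes and -0.50 among the lower ones. A log2 difference of at least 1 was reached by 312 called genes, 177 of them higher and 135 lower. With each array scaled to its median, 33.7% of 2028 calls were higher, and with outlier spots kept 1147 were higher and 1066 lower. An unadjusted p under 0.05 was reached by 5665 genes (29.9%).

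The 3 labelled arrays did not overlap the 3 gnc gnl arrays for 5981 genes (31.5%), among them 2194 of those called. For 82 of the called genes, 70 higher and 12 lower, the signal was not well above background in any array of the dimmer group, and for those a fold is written as a bound. The count of calls was 881 without labelled replicate 1, 870 without labelled replicate 2 and 1353 without gnc gnl replicate 1.

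With slide as a block, 174 genes (0.917%) were called, 155 of them among the 2213. That fit compares labelled replicate 3 with the 3 gnc gnl arrays, as does the fit within slide 3, where the lone labelled array is assumed to vary like the gnc gnl arrays and 1 gene, QQS, was called (0.00528%). The sign of the difference within slide 3 was the same as in the full comparison for all 2213 called genes, although labelled replicate 3 enters both. Relative to the gnc gnl mean, labelled replicates 1, 2 and 3 had a median log2 value of 0.50, 0.50 and 0.45 over the higher genes and of -0.51, -0.50 and -0.48 over the lower genes. These genes were called from the same arrays, so the medians describe the calls and test nothing about the slide. Labelled replicate 3 was the lowest of the 3 labelled arrays for 51.1% of the higher genes and the highest for 43.4% of the lower genes.

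**Figure D2:**
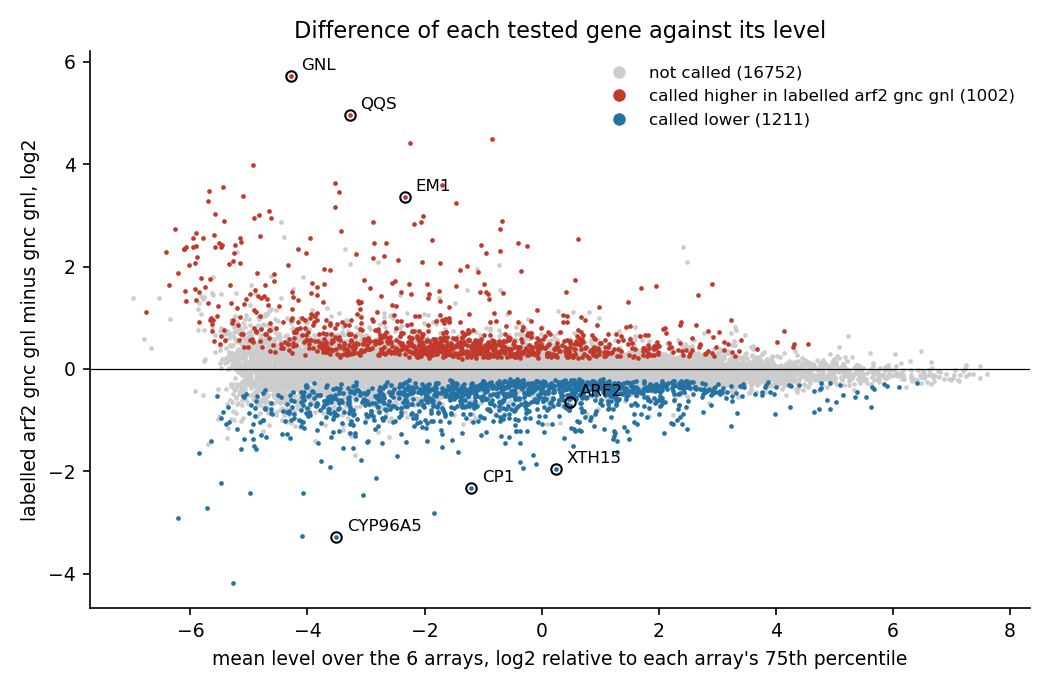
Log2 difference (labelled arf2 gnc gnl minus gnc gnl) of each of the 18965 tested genes against its mean log2 level over the 6 arrays, relative to the 75th percentile of each array. Red points are the 1002 genes called higher and blue points the 1211 called lower; Among the circled genes, GNL and QQS lie farthest above 0 and CYP96A5 farthest below.

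Genes that loosen and rebuild the cell wall were mostly on the lower side. Xyloglucan endotransglucosylase/hydrolases (XTH) cut and rejoin the xyloglucan chains that tie cellulose fibres together, and expansins let walls yield during growth. Of 42 tested XTH and expansin genes, 16 were lower and 2 higher, or 42.9% called against 11.7% of all genes. Their median log2 difference was -0.38, against -0.01 over all tested genes, and it was -0.38 within slide 3 too. With slide as a block 4 of the 42 were called.

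XTH15 (AT4G14130) showed the largest fall of this group. It read 244%, 191% and 272% in gnc gnl and 50.1%, 71.0% and 60.2% in the labelled arrays, where WT read 90.9%, 73.6% and 65.5%. The groups did not overlap, and the gene was 3.90-fold lower (log2 difference -1.96 ± 0.17, adjusted p = 1.92e-04), with -1.95 on its other probe.

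XTH17, XTH18 and XTH19 moved the same way. XTH18 read 613%, 748% and 734% in gnc gnl and 340%, 361% and 349% in the labelled arrays (-0.99 ± 0.09). XTH19 read 39.5%, 38.5% and 49.3% against 16.7%, 18.3% and 13.1% (-1.41 ± 0.14), and XTH17 read 29.7%, 32.1% and 32.2% against 17.0%, 17.9% and 14.0% (-0.95 ± 0.09). No array of one group reached the other in any of the 3. These related genes can share probe signal, so their values are not independent of each other. XTH23 (-1.29 ± 0.15), XTH33 (-1.61 ± 0.25), XTH31 (-0.74 ± 0.12) and XTH30 (-0.63 ± 0.10) were also lower.

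Among the expansins, EXPA17 (-1.52 ± 0.29), EXPA7 (-0.91 ± 0.22), EXPA16 (-0.90 ± 0.14) and EXPA9 (-0.65 ± 0.10) were lower. EXPA7 is a root hair expansin. EXPA15 went the other way, at 157%, 163% and 150% in gnc gnl and 186%, 195% and 219% in the labelled arrays (0.35 ± 0.10), as did XTH25 (0.95 ± 0.25). The list therefore did not move as 1 block.

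Of 15 phloem and xylem markers, 7 were lower (median -0.35; 46.7% called against 11.7% of all genes). Of these, 1 was called with slide as a block. SWEET12, a sucrose exporter of the phloem, read 70.4%, 72.4% and 75.6% in gnc gnl and 45.6%, 47.2% and 42.2% in the labelled arrays (-0.69 ± 0.10, adjusted p = 0.00241). SEOa, a sieve element protein (-0.60 ± 0.10), XCP1, a xylem cysteine peptidase (-0.57 ± 0.10), and APL, a regulator of phloem identity (-0.43 ± 0.08), were lower as well. In RNA of whole seedlings, fewer cells of a type and less RNA per cell cannot be told apart. The summed signal of the list ran from 3463% to 4040% in gnc gnl and from 2861% to 3029% in the labelled arrays, without overlap.

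Of 8 meristem and boundary markers tested, 4 were lower (50% called against 11.7% of all genes). These were CUC2, CUC1 and CUC3, which mark organ boundaries, and STM, a homeobox gene that maintains the shoot meristem. CUC2 read 4.65%, 4.53% and 6.22% in gnc gnl and 3.02%, 3.12% and 3.51% in the labelled arrays (-0.66 ± 0.13), and STM read 22.4%, 20.8% and 25.5% against 16.3%, 16.9% and 19.1% (-0.39 ± 0.10). The defining meristem genes WUS and CLV3 were not well above background in any of the 6 arrays. The median over the 8 genes was -0.31, and with slide as a block limma called none of them, while 7 had an unadjusted p under 0.05 in the full comparison.

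Of 28 root markers, 8 were lower (28.6% called against 11.7% of all genes). The median was -0.45 over the list and -0.60 within slide 3. Of the 28, 2 were called with slide as a block. CASP5, which helps build the Casparian strip of the root endodermis, read 19.3%, 14.6% and 19.4% in gnc gnl and 9.57%, 9.10% and 7.41% in the labelled arrays (-1.03 ± 0.15). COBL9 (-0.99 ± 0.21), RSL4 (-1.06 ± 0.24) and PRP3 (-1.04 ± 0.28) are root hair genes. The summed signal of the root markers was 11090% to 11640% in gnc gnl and 8893% to 9427% in the labelled arrays, without overlap, although 20 of the 28 markers did not pass the test. The part of the root or vascular share of the tissue in the other differences was not tested.

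**Figure D3:**
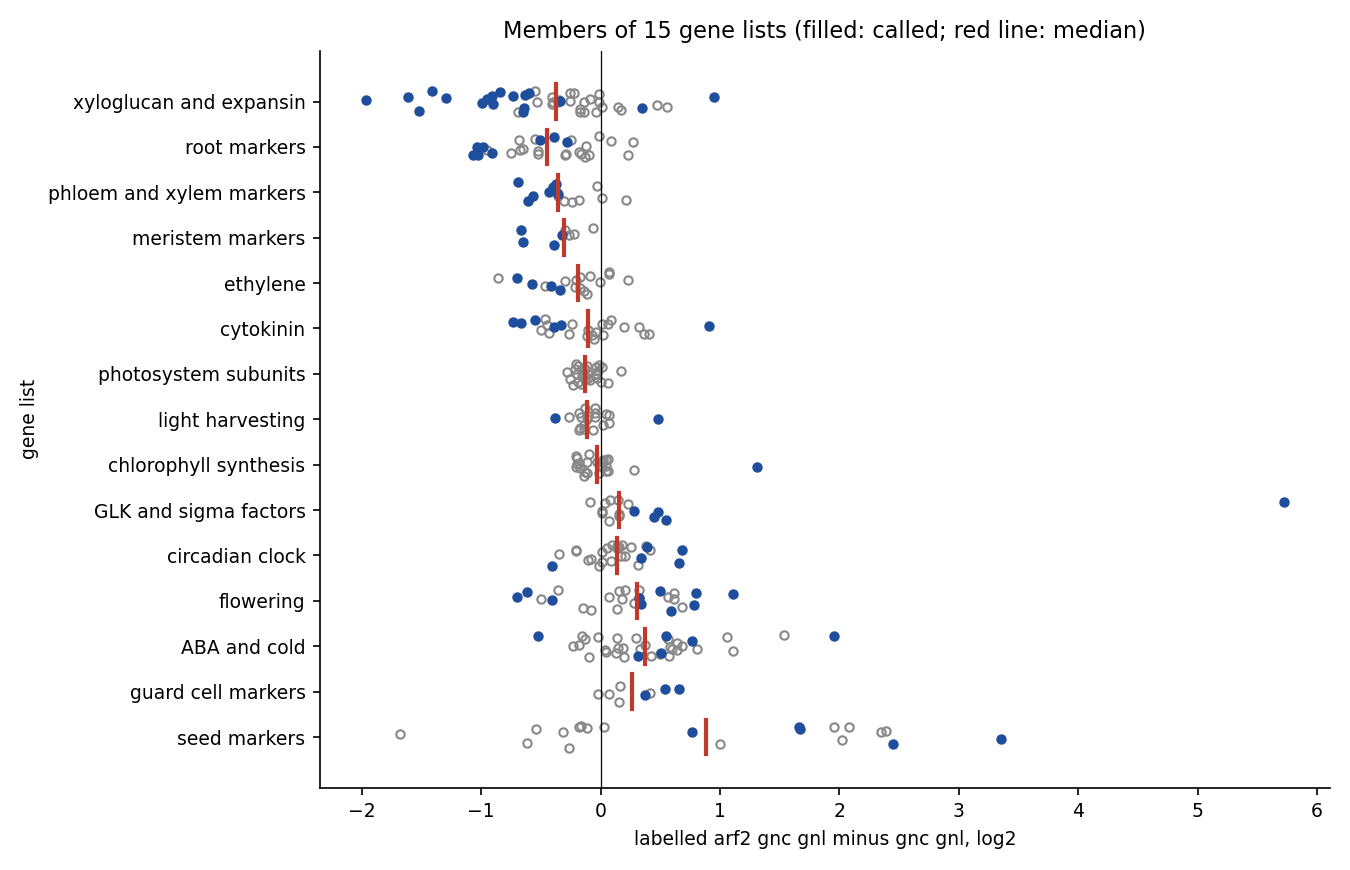
Log2 difference (labelled arf2 gnc gnl minus gnc gnl) of each tested member of 15 gene lists, with filled points for called genes and a red line at the median of the list. The xyloglucan and expansin list has a median of -0.38 and the seed markers one of 0.88, while the photosystem genes are spread narrowly around -0.13.

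Of 18 ethylene genes, 4 were lower (22.2% called against 11.7% of all genes), with a median of -0.19. EBF2, an F-box protein that removes the ethylene transcription factor EIN3, read 308%, 305% and 308% in gnc gnl and 189%, 181% and 196% in the labelled arrays (-0.70 ± 0.09, adjusted p = 0.00195). The ethylene receptors ERS1 (-0.42 ± 0.07) and ERS2 (-0.34 ± 0.07) and the receptor-coupled kinase CTR1 (-0.58 ± 0.13) completed the 4.

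Of 25 cytokinin genes, 5 were lower and 1 higher (24% called). LOG1, an enzyme that activates cytokinin, was the higher one, at 91.2%, 99.2% and 104% in gnc gnl and 186%, 174% and 193% in the labelled arrays (0.91 ± 0.10, adjusted p = 6.54e-04), and it was called with slide as a block too. The response regulators ARR6 (-0.73 ± 0.12), ARR5 (-0.55 ± 0.12) and ARR4 (-0.33 ± 0.09), the synthesis gene IPT5 (-0.66 ± 0.17) and LOG5 (-0.39 ± 0.10) were lower. Type A response regulators such as ARR5 and ARR6 are induced by cytokinin.

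Of 23 Aux/IAA genes, which encode repressors bound by the auxin receptors, 3 were lower: IAA5 (-0.62 ± 0.13), IAA20 (-0.60 ± 0.17) and IAA26 (-0.28 ± 0.07). Of 20 GH3 and SAUR genes, the auxin-conjugating enzymes GH3.3 (-0.64 ± 0.11) and GH3.17 (-0.35 ± 0.09) were lower. Of 14 auxin response factors, ARF11 (0.55 ± 0.10) and ARF18 (0.43 ± 0.09) were higher. The calls made up 13% of the Aux/IAA genes, 10% of the GH3 and SAUR genes and 14.3% of the response factors, near the 11.7% of all genes. ARF11 read 39.1%, 43.7% and 34.3% in gnc gnl and 54.2%, 60.5% and 55.8% in the labelled arrays.

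Among 26 gibberellin genes, the synthesis gene GA20OX2 (-0.60 ± 0.12), the receptor gene GID1B (-0.32 ± 0.08) and GASA14 (-0.59 ± 0.16) were lower. The DELLA repressor gene RGL2 was higher, at 38.6%, 41.4% and 39.1% in gnc gnl and 56.4%, 53.3% and 52.1% in the labelled arrays (0.44 ± 0.12). For GID1B the value of labelled replicate 1 was an outlier spot and was left out of the fit. These 4 calls of 26 are 15.4%, near the 11.7% of all genes.

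Genes for the photosynthetic machinery did not separate the groups, although GNL did. None of 29 photosystem subunits passed limma's test, and none had an unadjusted p under 0.05 in it. Their median log2 difference was -0.13, and it was -0.04 after quantile normalization. PSAF, a subunit of photosystem I, had a difference of -0.21 ± 0.10 and PETC, the Rieske protein, of -0.19 ± 0.09. Of 20 light-harvesting genes, 10% were called, near the 11.7% of all genes. LHCB2.1 was higher (0.48 ± 0.09, but -0.27 on its other probe) and LHCB4.3 lower (-0.39 ± 0.09).

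Of 23 chlorophyll synthesis genes, PORA, a light-dependent protochlorophyllide reductase, was the 1 called (4.35% against 11.7% of all genes). It read 6.02%, 4.05% and 4.53% in gnc gnl and 14.4%, 15.9% and 7.34% in the labelled arrays, while WT read 26.6%, 22.7% and 16.5% (1.31 ± 0.31, adjusted p = 0.0239). Labelled replicate 3 was the nearest of its group to gnc gnl. None of 14 chloroplast division genes passed, and 2 had an unadjusted p under 0.05. Of 25 Calvin cycle and photorespiration genes, FBA5, a fructose-bisphosphate aldolase, was higher (0.61 ± 0.11), and 4% of the list was called.

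Regulators of plastid genes included 5 that rose. Of 15 genes in the list of GLK, sigma and related factors, 5 were higher, GNL among them (33.3% called against 11.7% of all genes). With slide as a block 2 of the 15 were called. CIA2, a factor that promotes chloroplast protein import, read 64.7%, 56.4% and 58.9% in gnc gnl and 84.3%, 82.5% and 95.8% in the labelled arrays (0.54 ± 0.09, adjusted p = 0.00419). GLK1, a factor known for switching on photosynthesis genes, read 276%, 350% and 347% against 434%, 411% and 477% (0.45 ± 0.11). PTAC14, part of the plastid transcription complex (0.48 ± 0.11), and the sigma factor SIG4 (0.28 ± 0.08) were the others. The median over the list was 0.15.

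Of 8 guard cell markers 3 were higher (37.5%), the potassium channel KAT1 (0.66 ± 0.10), the anion channel SLAC1 (0.54 ± 0.10) and FAMA, a transcription factor of guard cell formation (0.37 ± 0.10). EPFL9 (stomagen), a peptide that promotes stomatal development, read 55.0%, 60.7% and 68.8% in gnc gnl and 110%, 97.4% and 104% in the labelled arrays (0.76 ± 0.10, adjusted p = 0.00165). It was 1 of 2 called among 17 stomatal lineage genes, FAMA, counted in both lists, being the other. That share of 11.8% is the same as that of all genes within rounding, 11.7%.

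Flowering-time genes had 10 calls among 26 (38.5% against 11.7% of all genes), with 7 higher and 3 lower. The repressors FLC (0.34 ± 0.09), SVP (0.33 ± 0.08), MAF4 (0.79 ± 0.18) and MAF5 (0.80 ± 0.22) were higher. FLC read 36.8%, 34.0% and 39.0% in gnc gnl and 51.7%, 46.1% and 41.0% in the labelled arrays. The repressor TEM1 was lower, at 671%, 578% and 698% against 380%, 402% and 412% (-0.70 ± 0.11), as were the AP2-type gene TOE2 (-0.61 ± 0.09) and GI (-0.41 ± 0.07). With slide as a block none of the 26 was called by limma, although 19 had an unadjusted p under 0.05 in the full comparison, a level reached by 29.9% of all genes.

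Of 26 clock genes, 19.2% were called against 11.7% of all genes. The morning factors RVE1 (0.66 ± 0.10) and RVE8 (0.39 ± 0.09), LNK1 (0.34 ± 0.07) and PRR3 (0.68 ± 0.18) were higher and GI, an evening gene, was lower. RVE1 read 290%, 272% and 278% in gnc gnl and 462%, 401% and 462% in the labelled arrays. In light signalling, HFR1, which restrains the PIF factors, read 75.3%, 102% and 93.6% against 182%, 191% and 186% (1.06 ± 0.11, adjusted p = 6.87e-04). The photoreceptor gene PHYA was lower (-0.41 ± 0.06) and PHYE higher (0.34 ± 0.09). The list of 31 light signalling genes had 5 calls (16.1%).

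Of 20 seed markers tested, 5 were higher (25% called), and the median of 0.88 was the highest of the 39 lists, but the arrays of each group were far apart. EM1, a late embryogenesis abundant protein made in dry seed, read 4.55%, 19.0% and 2.80% in gnc gnl and 95.4%, 63.2% and 42.7% in the labelled arrays (3.35 ± 0.60, adjusted p = 0.00770). PER1, a seed peroxiredoxin, read 30.5%, 57.1% and 19.5% against 274%, 214% and 95.1% (2.45 ± 0.43). In both genes the groups did not overlap and labelled replicate 3 was the lowest of its group.

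ECP63 (1.67 ± 0.37), a late embryogenesis abundant protein, and SESA5, a 2S albumin (1.66 ± 0.49), were higher as well. FUS3, a master regulator of seed maturation, was not well above background in gnc gnl and was at least 1.33-fold higher. Other storage genes overlapped: the cruciferin CRU3 read 891%, 244% and 58.5% in gnc gnl and 2079%, 1485% and 589% in the labelled arrays (2.39, adjusted p = 0.11). The albumin SESA3 read 568%, 36.9% and 24.9% against 312%, 178% and 6.64%. The regulator LEC2 was not well above background in any of the 6 arrays.

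The mean log2 level of the 20 seed markers was -0.73, -2.21 and -3.37 in gnc gnl replicates 1 to 3 and -0.29, -0.88 and -2.46 in labelled replicates 1 to 3. It was -4.91 to -4.27 in WT and -1.07 to -0.72 in arf2. The summed signal of the seed list ran from 435% to 3470% in gnc gnl and from 1815% to 5968% in the labelled arrays, so the groups overlapped. With slide as a block none of the seed markers was called, although 10 had an unadjusted p under 0.05 in the limma fit of all arrays. The part of this spread in other differences was not tested.

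**Figure D4:**
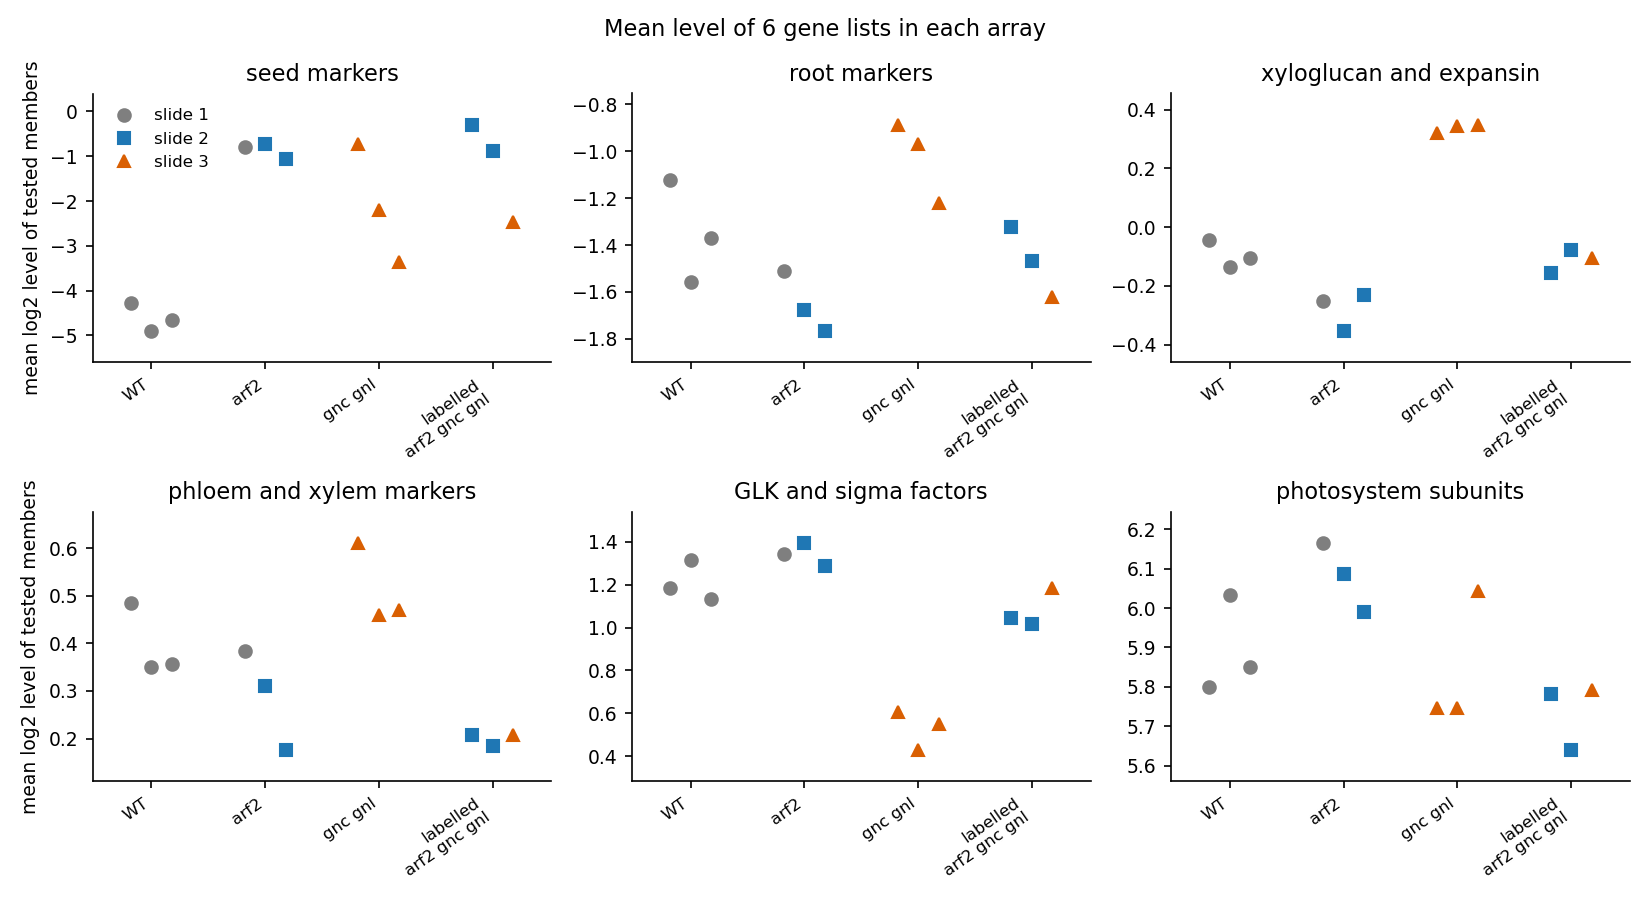
Mean log2 level, relative to the 75th percentile of each array, of the tested members of 6 gene lists in each of the 12 arrays, with marker shape and colour for the slide. Seed markers range from -3.37 to -0.73 among the gnc gnl arrays and overlap the labelled arrays, whereas the xyloglucan and expansin list sits at 0.32 to 0.35 in gnc gnl and at -0.16 to -0.08 in the labelled arrays.

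Genes of the abscisic acid and cold list, 35 tested, had 5 higher and 1 lower (17.1% called against 11.7% of all genes). With slide as a block none was called. The mean log2 level of the list ran from -0.52 to 0.31 in gnc gnl and from 0.18 to 0.43 in the labelled arrays, so the groups overlapped. COR15B, a chloroplast protein of cold acclimation, read 2.16%, 6.72% and 3.99% in gnc gnl and 16.5%, 13.5% and 15.2% in the labelled arrays, near the 16.2%, 17.0% and 20.8% of WT (1.96 ± 0.38, adjusted p = 0.0110). The transcription factors of abscisic acid responses ABF1 (0.55 ± 0.12), ABF2 (0.50 ± 0.13) and ABF4 (0.31 ± 0.07) and the cold regulator CBF2 (0.76 ± 0.21) were higher. RD26, a NAC factor induced by drought, was lower (-0.52 ± 0.15).

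By size, QQS (AT3G30720) led the measured genes on the higher side. QQS is a gene found only in Arabidopsis thaliana whose loss raises leaf starch. It read 2.21%, 1.88% and 1.54% in gnc gnl and 59.1%, 68.7% and 46.8% in the labelled arrays, a 30.9-fold rise (4.95 ± 0.24, adjusted p = 7.31e-06). The signal was well above background in 1 of the 3 gnc gnl arrays, so the size of this fold rests partly on dim spots. The rise within slide 3 was 4.66, and QQS was the gene still called there (adjusted p = 0.0495). WT read 1.81%, 1.15% and 1.21% and arf2 read 25%, 34.1% and 44.6%.

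The other 11 of the 12 largest rises were AT5G35660, AT1G54870, AT1G27990, AT1G47980, AT2G42560, EM1, AT5G44310, AT3G56350, AT1G05510 (OBAP1a, an oil body-associated protein), AT1G29680 and AT1G04560, with log2 differences of 4.49 down to 2.88. AT5G35660 read 12%, 27.7% and 4.89% in gnc gnl and 447%, 338% and 122% in the labelled arrays (4.49 ± 0.60), but 2.05 on its other probe. AT1G54870 read 6.64%, 9.75% and 1.49% against 171%, 113% and 47.5% (4.41 ± 0.67). For 7 of the 12, QQS and EM1 among them, the signal was not well above background on every gnc gnl array. Labelled replicate 3 was the lowest labelled array for all 12, and for 10 of them every arf2 array was above every labelled array.

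Against gnc gnl arrays with no signal well above background, 7 more genes rose by the largest bounds after GNL. AT3G22490 was at least 5.86-fold higher, AT1G14930 at least 4.89-fold, AT4G31830 at least 4.28-fold and AT3G19920 at least 4.24-fold. AT3G22490 read 20.4%, 14.5% and 7.62% in the labelled arrays and 44.1%, 43.0% and 21.6% in arf2.

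The 12 largest measured falls began with CYP96A5, a cytochrome P450. It read 21.3%, 28.6% and 34.0% in gnc gnl and 1.15%, 4.92% and 3.98% in the labelled arrays, close to the 4.53%, 5.45% and 3.1% of WT (-3.28 ± 0.47, adjusted p = 0.00299). PGAZAT (ADPG2), a polygalacturonase that cuts pectin where organs separate, read 14.0%, 23.7% and 18% against 1.03%, 1.72% and 3.79% (-3.27 ± 0.37), and WT read 2.11%, 1.83% and 1.67%. CP1, a cysteine proteinase, read 76.4%, 134% and 89.8% against 19.4%, 18.5% and 20.5% (-2.32 ± 0.18, adjusted p = 7.46e-05). Each of the 3 was high in gnc gnl and at or near the WT signal in the labelled arrays.

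AT1G29090 (-2.81 ± 0.35), AT2G34080 (-1.94 ± 0.25), AT5G47980 (-1.82 ± 0.29), AT5G04120 (-1.87 ± 0.36), AT1G65570 (-2.13 ± 0.49) and the SAUR-type gene AT2G37030 (SAUR46; -1.92 ± 0.28) followed, with XTH15. AT5G36130 (-2.46 ± 0.48) and CYP716A2 (AT5G36140, -2.41 ± 0.45) have neighbouring locus numbers, and their signals may not be separate. For 3 of the 12, CYP96A5, PGAZAT and CYP716A2, the signal was not well above background on every labelled array. In 9 of the 12 genes no labelled array was above the highest WT array.

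Among genes not well above background in any labelled array, GH9B15 (AT4G23560), of the endoglucanase family, was at least 5.17-fold lower. It read 9.17%, 16.7% and 8.74% in gnc gnl. BIP3, a chaperone of the endoplasmic reticulum, read 7.03%, 5.38% and 10.6% in gnc gnl and was at least 3.45-fold lower, and the sugar transporter gene SWEET3 was at least 2.52-fold lower. GH9B15, PGAZAT and XTH15 all encode enzymes that act on wall polymers.

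Both groups share arrays with their comparisons to WT, so those values are given side by side without a test of their relation. Against WT, 4663 genes (24.6%) were called in gnc gnl and 431 (2.27%) in the labelled arrays. The WT arrays shared no slide with either group, so genotype and slide cannot be told apart in these values. For CP1 the log2 difference from WT was 2.0 in gnc gnl and -0.32 in the labelled arrays, and for XTH15 it was 1.62 and -0.34. For QQS it was 0.45 in gnc gnl and 5.40 in the labelled arrays. The labelled arrays therefore lay near WT for CP1 and XTH15 and far from it for QQS.

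**Figure D5:**
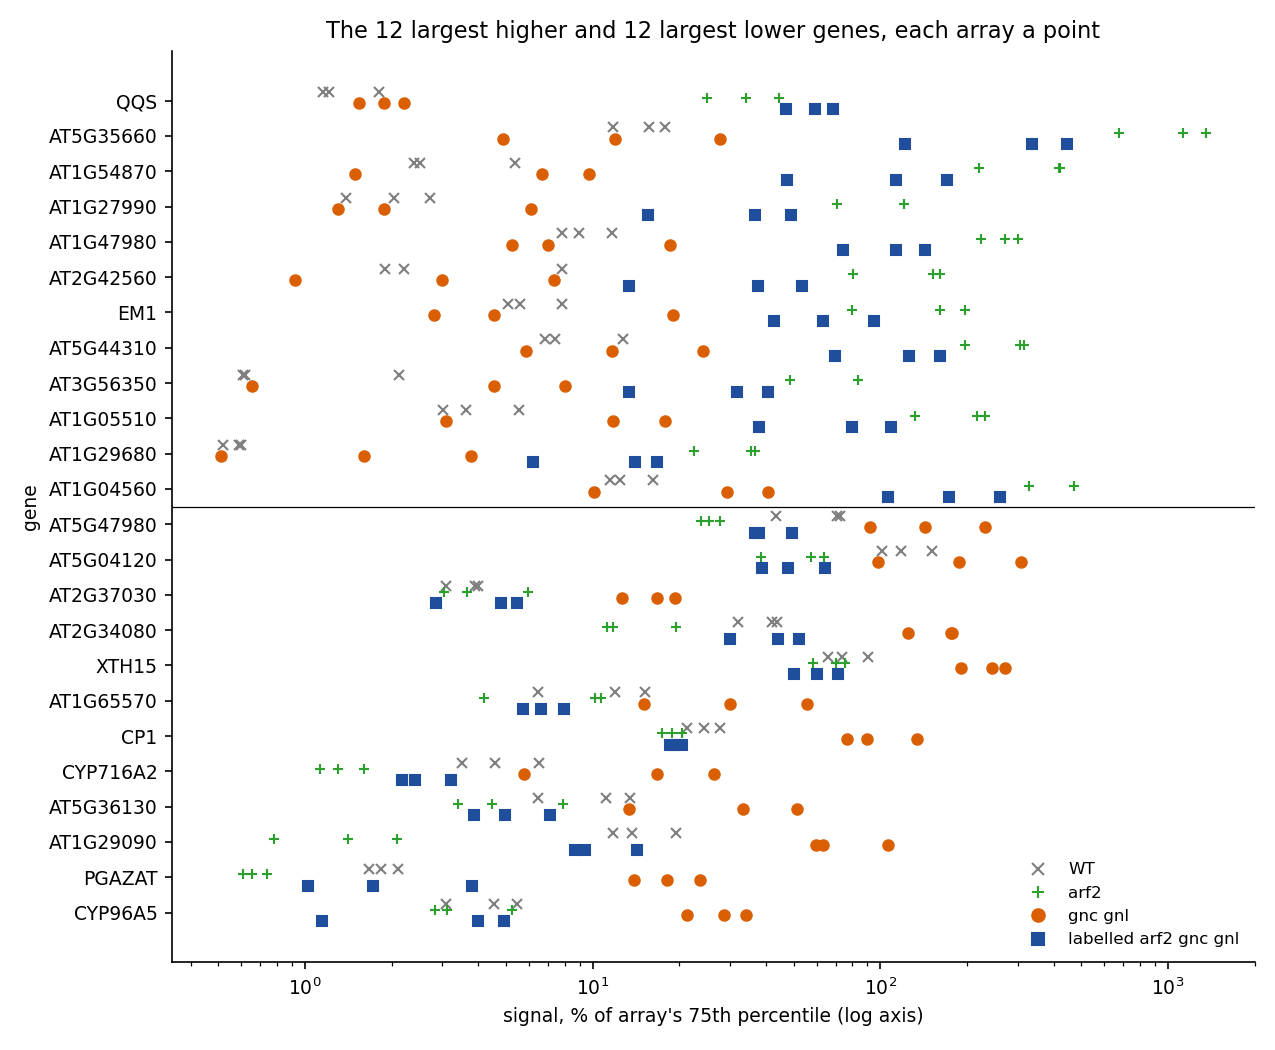
Signal of the 12 genes with the largest rise and the 12 with the largest fall in each of the 12 arrays, as a percent of the array's 75th percentile on a log axis, each point an array. In the lower block the gnc gnl arrays stand to the right of the other 3 genotypes for genes such as CP1 and XTH15, and in the upper block the labelled arrays lie between gnc gnl and arf2 for most genes.

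Of 36 sulfur and glucosinolate genes, 4 were lower and 1 higher (13.9% called against 11.7% of all genes). LSU1, which rises in sulfur-starved plants, read 642%, 845% and 512% in gnc gnl and 288%, 268% and 269% in the labelled arrays (-1.25 ± 0.14, adjusted p = 8.35e-04, but -0.39 on its other probe), and the myrosinase TGG2 was higher (0.85 ± 0.13). Of 28 iron genes, 17.9% were called. The ferritins FER4 (-0.76 ± 0.10, with gnc gnl replicate 2 left out as an outlier spot) and FER1 (-0.52 ± 0.11) were lower. So were the transporters YSL1 (-0.60 ± 0.10) and IRT2 (-0.89 ± 0.25). FER2, the seed ferritin, was higher (1.06 ± 0.23).

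Of 25 nitrogen genes 20% were called. Of these, 4 were lower, among them LBD38, a repressor of nitrate responses (-0.70 ± 0.18), and NRT1.8, a nitrate transporter, was higher (0.90 ± 0.20). Of 30 phosphate genes, 6.67% were called, below the 11.7% of all genes. RNS1, a ribonuclease, was lower, at 118%, 224% and 148% in gnc gnl and 63.9%, 76.6% and 60.5% in the labelled arrays (-1.24 ± 0.22). The phosphatase gene PAP10 was lower too (-0.35 ± 0.08). Of 24 starch genes, 3 were higher and 2 lower (20.8% called): QQS, GBSS1, the amylose synthase (0.35 ± 0.08), and BAM4 (0.32 ± 0.07) were higher, and ISA2 (-0.36 ± 0.10) and BAM3 (-0.28 ± 0.08) lower. In the chlorophyll breakdown and senescence list of 16, 4 were lower and 1 higher (31.3% called). The NAC factor ORE1 (-1.0 ± 0.12), SAG21 (-0.74 ± 0.18), SEN4 (-0.64 ± 0.16) and NYC1 (-0.27 ± 0.07) were lower and NAP higher (0.72 ± 0.13).

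None of 20 flavonoid and anthocyanin genes passed limma's test, and 4 had an unadjusted p under 0.05. In the heat list of 17, 4 genes were higher and 2 lower (35.3% called against 11.7% of all genes). DREB2A, a heat and drought factor among the higher ones, read 24.7%, 29.3% and 26.7% in gnc gnl and 39.6%, 36.4% and 40.7% in the labelled arrays (0.54 ± 0.11). The largest change in the list was a fall, that of BIP3, given above as at least 3.45-fold. The hypoxia list had a median of 0.59, and 2 of its 14 genes were called, or 14.3%, near the 11.7% of all genes. LBD41 was higher (0.94 ± 0.24) and RAP2.12, an oxygen-sensing factor, lower (-0.46 ± 0.07). The mean log2 level of the list ran from -0.66 to 0.21 in gnc gnl and from 0.11 to 0.43 in the labelled arrays, so the groups overlapped. Of 31 cell cycle and organ size genes, 6.45% were called, below the share of all genes. CYCD1;1 was higher (0.57 ± 0.11) and ARGOS, which enlarges organs, lower (-0.82 ± 0.16). Of 22 jasmonate genes, 13.6% were called, near the share of all genes. The defensin PDF1.2 was at least 2.66-fold higher and AOC4 and JAZ2 were lower (-0.41 ± 0.09 and -0.32 ± 0.08).

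Among the remaining lists, the share called was below that of all genes for the salicylate list only. The share of the pollen and flower list rests on 2 tested genes. Of 22 touch and rapid stress genes, CML38, a calmodulin-like gene, was higher (1.47 ± 0.30) and WRKY18 (-0.53 ± 0.08), JAZ1 (-0.55 ± 0.12) and MYB44 (-0.30 ± 0.08) were lower. Of 15 salicylate genes, EDS1 was lower (-0.23 ± 0.06). Of 7 class B GATA genes GNL was the 1 called, and GATA16 (-0.34 ± 0.11) and GATA17 (0.19 ± 0.08) were not. Of 7 leaf mesophyll markers LHCB2.1 was called. Of 11 pollen and flower markers, 8 were not well above background in any of the 6 arrays and 2 were tested, with the floral factor PI higher (0.69 ± 0.16) and SEP3 lower (-0.99 ± 0.24).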

How the data were processed

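Total RNA of whole seedlings was measured on 12 one-colour Cy3 arrays, 3 per genotype, grouped by the labels. The deposited scanner files hold spot intensity, background-subtracted and detrended by Agilent Feature Extraction 10.7.3.1 per the file headers and the submitters' processing notes, with no scaling between arrays. The deposited series table holds the same intensity values (0 cells differ). Outlier spots were left out, and the log2 intensity minus each array's 75th percentile was analysed. Of 43603 probes, 34267 matched 1 of 25371 loci through RefSeq accessions (TAIR10.1), and 9336 matched none. A gene is its probe with the highest mean, tested if some genotype had it well above background on its 3 arrays and each genotype had at least 2 values.

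One model over 12 arrays (limma 3.58.1, R 4.3.3, 8 residual degrees of freedom) gave every adjusted p (Benjamini-Hochberg over 18965 genes) and SE. The script was tested on simulated data. For a bound, each dimmer array took the array's lowest well-above-background signal, or the probe's own signal if larger, and the brighter group's mean was set against these.

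Named were ARF2, GNC and GNL, the 12 largest called genes each way without overlap, and up to 4 members with the smallest p of each list; other genes were named after their values were seen. The comparison and its 39 lists (889 members on the array) were chosen with earlier results of these data known. Of 1008 members written, 73 had no single match and 10 names belonged to another gene. Deviations of same-numbered arrays correlated at 0.14, 0.13 and 0.35, so replicate numbers were also fitted as a block. Alternatives covered scaling, normexp (offset 50, on median spot signals), filters, outlier spots, probes per gene, slide, replicate number, arrays in the fit, intensity trend, array weights and each array left out. No probe sequence or coordinate was used here.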

Additional observations from a re-analysis of the deposited data

Results flagged for a closer look

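The difference between labelled and gnc gnl was compared with that between arf2 and WT, as a limma interaction over 12 arrays adjusted over all genes. Among ARF2, GNC, GNL and the 24 largest genes, 6 passed. The share of all genes that passed is not given here. The 24 were chosen by a difference that enters the interaction. The fit had no term for slide, and no slide held both WT and gnc gnl arrays. Genotype and slide therefore cannot be fully told apart here. Both differences carry the arf2 mutation by label. For ARF2 the interaction was 5.56 ± 0.79 on the log2 scale (adjusted p = 0.00883), with -0.65 between labelled and gnc gnl and -6.21 between arf2 and WT; the ARF2 signal was well above background in 1 of the 3 arf2 arrays, so the last value and the interaction rest on dim spots. For GNL it was 5.55 ± 0.46 (adjusted p = 7.79e-04), with 5.72 and 0.17; the value rests on gnc gnl arrays not well above background.

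For CYP96A5 it was -3.04 ± 0.67 (adjusted p = 0.0413), for CP1 -1.96 ± 0.25 (adjusted p = 0.00588), for XTH15 -1.80 ± 0.24 (adjusted p = 0.00756) and for AT2G37030 -2.08 ± 0.40 (adjusted p = 0.0260). In arf2 against WT these 4 genes had log2 differences of -0.24, -0.37, -0.17 and 0.15, while all 4 were lower in the labelled arrays than in gnc gnl. GH9B15, given above as a bound, passed the same test too (-3.11 ± 0.33, adjusted p = 0.00188). Its signal was well above background in the gnc gnl arrays only, so this value rests on dim spots.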

How the results depend on the processing

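The 2213 calls (1002 higher, 1211 lower) became 1426 (659 and 767) with no filter on dim probes, 174 (78 and 96) with slide as a fixed block, 1 (1 and 0) within slide 3, where 1809 genes had an unadjusted p under 0.05 in limma, 1123 (476 and 647) with only the 6 arrays, and 312 (177 and 135) with a log2 difference of at least 1. Leaving out each array gave 870 to 2118 calls, 384 to 1047 higher and 461 to 1071 lower. Fewer arrays enter the slide 3, 6-array and left-out fits. The fixed slide block keeps all 12 arrays, but its difference rests on labelled replicate 3 against the 3 gnc gnl arrays. The cause of the lower counts was not tested otherwise. In the other settings run the calls numbered 1841 to 2711. With the replicate block, 2091 genes were called, and the calls of ARF2, GNC, GNL and the 24 largest genes were the same; of 159 other named genes 5 lost and 4 gained a call. With slide as a fixed block 19 of the 24 largest and 94 of the 159 lost their call, and within slide 3, 23 and 116. ARF2 passed with normexp (-0.59, adjusted p = 0.0284), with only the 6 arrays (-0.65, adjusted p = 0.0382) and without the arf2 arrays (-0.65, adjusted p = 0.0122), the last chosen after seeing the data. GNC passed with the mean of all probes (0.78, adjusted p = 0.00879) and without gnc gnl replicate 2 (0.50, adjusted p = 0.0182; 0.20 to 0.50 over the left-out arrays). GNL was 5.75 within slide 3 (adjusted p = 0.165). ARF2, GNC, GNL and the called genes named kept their direction under these settings. The medians of 14 of the 39 lists changed sign under at least 1, all with a main value within 0.15 of 0; within slide 3 the Calvin cycle list went from -0.12 to 0.01 and the leaf mesophyll list from -0.12 to 0.04. With outlier spots kept, 1147 genes were higher and 1066 lower. Of 603 called genes with further probes, 37 had a probe of opposite sign. Dim signals limit 82 calls to bounds.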

Other observations

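Numbered gene families that the lists do not cover also had calls. These families were chosen after their values were seen, from those with the highest share of calls, so their counts support nothing beyond the values; 11.7% of all genes were called. Of 16 BBX genes, zinc finger factors of light responses, 5 were higher and 1 lower: BBX15 (0.38 ± 0.07), BBX16 (0.47 ± 0.10), BBX32 (0.39 ± 0.10), BBX31 (0.46 ± 0.13) and BBX29 (0.32 ± 0.09) were higher and BBX21 lower (-0.32 ± 0.07). Of 31 serine carboxypeptidase-like genes (SCPL), 7 were lower and 3 higher, with SCPL34 at -0.76 ± 0.10, scpl48 at -0.67 ± 0.09 and SCPL13 at 0.42 ± 0.10. The 3 higher ones, scpl10, SCPL12 and SCPL13, have locus numbers close to each other and may share probe signal.

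Of 34 ABCG transporters, 6 were higher and 4 lower. ABCG21 (0.50 ± 0.06) was higher, as was ABCG22 (0.42 ± 0.10), while ABCG15 (-0.70 ± 0.10) and ABCG14 (-0.59 ± 0.15), known for moving cytokinin from root to shoot, were lower. Among genes with PDF names, 4 of 13 were higher, including PDF2.1 (1.5 ± 0.27), and PDF1.4 was lower (-1.06 ± 0.28).

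In 3 places 4 tested genes in a row by locus number were called in the same direction. AT4G15660, AT4G15680, AT4G15690 and AT4G15700 were lower by -1.57, -1.43, -1.80 and -1.78. AT1G18750 (AGL65), AT1G18773, AT1G18800 (NRP2) and AT1G18810 were higher by 0.50, 0.57, 0.36 and 0.61. AT1G74000 (SS3), AT1G74010, AT1G74020 (SS2) and AT1G74030 (ENO1) were lower by -0.39, -0.66, -0.43 and -0.51. Related neighbours can share probe signal, which was not tested.

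Of 3314 probes without a locus that passed the filter, 169 were higher and 103 lower in the labelled arrays.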
